A study of Homo sapiens with 33 samples.

Results

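RNA and promoter marks were followed for 46 genes of mitosis in human ESCs with and without EZH2. The genes were chosen by name from the 35805 genes listed in the RNA table, and cover the spindle, the kinetochore, condensin and cytokinesis. All 46 were among the 20608 genes tested, whose mean level was 0.1 RPM (reads scaled to library size) or more. Of the 46, 25 were called lower in cells lacking EZH2 than in the parental cells, against 18.8% of all tested genes, and 13 to 28 when single libraries were left out. BUB1 and KNTC1, 2 of the 46, were also called lower than in the same line with EZH2 restored, against 0.524% of all tested genes, and 0 to 4 members were when single libraries were left out. None was called higher in any of the 4 comparisons between genotypes.

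The cells were H9, an established line of human ESCs, grown on irradiated mouse feeder cells and sorted for the surface antigen SSEA4 before RNA was taken. EZH2+/+ ESCs, called parental here, were the unedited line. EZH2-/+ ESCs, called heterozygous, were a clonal line with 1 targeted allele, made with CRISPR/Cas9 and a guide in an early exon. EZH2-/- ESCs were derived from EZH2-/+ cells that carried a doxycycline (DOX)-inducible EZH2 transgene and were kept without DOX. The transgene is therefore taken here to be present in them but not induced. The study also made EZH2-/- lines with the transgene excised, and its RNA-seq methods do not say which lines were used. EZH2-/- +EZH2 ESCs, called restored, were EZH2-/- cells with the transgene, given DOX. RNA-seq was run on 3 libraries of each genotype, and ChIP-seq on 4 histone marks and input in each genotype and on EZH2 in EZH2+/+ ESCs alone. Differences between EZH2-/- and EZH2+/+ ESCs therefore include cloning and 2 rounds of targeting, which the comparison with EZH2-/- +EZH2 ESCs does not, although that comparison adds DOX.

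EZH2 is the catalytic subunit of PRC2, which places H3K27me3, a mark of repressed promoters. In mitosis, cyclin B with CDK1 drives entry, condensin and topoisomerase II shape the chromosomes, and kinetochores attach them to a spindle built with the help of kinesins. The spindle assembly checkpoint holds anaphase back until all chromosomes are attached, after which CDC20 activates the ligase that releases separase, and the cell then divides in cytokinesis. Many of these genes are transcribed late in the cell cycle through 2 promoter elements, CHR, which is bound by the DREAM and MuvB complexes, and the CCAAT box, which is bound by NF-Y.

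Promoters of 40 of the 46 genes were matched by symbol to RefSeq sequences of GRCh38.p14, each 300 bases from 250 before the start site to 50 after it. For the other 6 (BUB3, TTK, KNTC1, AURKA, BIRC5 and TPX2) none was listed. CHR was searched as the letters TTTGAA on both strands. The CCAAT box was searched by the letters of its name, also on both strands, and a match of each can share a single letter with a match of the other. CHR letters were present in 32 of the 49 promoters listed for the 40 genes, 65.3%, against 15.2% of all 35116 promoters. CCAAT letters were present in 34 of 49, 69.4%, against 34.6% of all promoters, and 23 of 49, 46.9%, held both against 5.90% of all. These matches are letters in a window, not measured binding.

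The last 150 bases before the start site are shown for BUB1, KIF15 and NCAPG, which were called lower in EZH2-/- ESCs relative to both parental and restored ESCs (KIF15 and NCAPG in the latter in a fit that pairs libraries by their number), for CCNB2, which was called only relative to parental ESCs, and for CCNB1, CDC20 and PLK1, which were not called in any comparison. Capitals mark CHR and CCAAT letters, and each stretch reads 5′ to 3′ on the strand of its gene.
BUB1: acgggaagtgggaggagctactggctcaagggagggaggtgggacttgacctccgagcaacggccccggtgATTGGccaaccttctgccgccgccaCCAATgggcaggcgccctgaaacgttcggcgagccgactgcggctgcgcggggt
KIF15: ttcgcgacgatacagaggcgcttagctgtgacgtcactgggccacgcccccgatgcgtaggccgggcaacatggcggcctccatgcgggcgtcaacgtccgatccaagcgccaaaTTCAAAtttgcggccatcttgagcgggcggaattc
NCAPG: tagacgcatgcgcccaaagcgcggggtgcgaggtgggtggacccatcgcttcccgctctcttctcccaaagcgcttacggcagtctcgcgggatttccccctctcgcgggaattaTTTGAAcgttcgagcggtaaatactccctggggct
CCNB2: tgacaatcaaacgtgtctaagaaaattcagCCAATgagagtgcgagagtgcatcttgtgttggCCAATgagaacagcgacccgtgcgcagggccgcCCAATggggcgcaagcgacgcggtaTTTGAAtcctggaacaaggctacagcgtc
CCNB1: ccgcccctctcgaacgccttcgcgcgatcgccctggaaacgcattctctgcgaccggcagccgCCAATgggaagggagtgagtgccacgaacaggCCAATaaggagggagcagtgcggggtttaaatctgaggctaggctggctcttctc
CDC20: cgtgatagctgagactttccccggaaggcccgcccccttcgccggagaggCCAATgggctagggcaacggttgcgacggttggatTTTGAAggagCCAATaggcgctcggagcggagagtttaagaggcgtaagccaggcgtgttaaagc
PLK1: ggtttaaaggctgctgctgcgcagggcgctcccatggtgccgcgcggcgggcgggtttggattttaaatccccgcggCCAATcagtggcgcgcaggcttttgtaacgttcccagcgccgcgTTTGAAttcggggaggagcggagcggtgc
The stretches lie at chr2:110678064-110678213 on the minus strand for BUB1, chr3:44761644-44761793 on the plus strand for KIF15, chr4:17810829-17810978 on the plus strand for NCAPG, chr15:59104996-59105145 on the plus strand for CCNB2, chr5:69167000-69167149 on the plus strand for CCNB1, chr1:43358831-43358980 on the plus strand for CDC20, chr16:23678739-23678888 on the plus strand for PLK1, in GRCh38.p14. In these stretches CCNB2, CDC20 and PLK1 hold both motifs, KIF15 and NCAPG hold CHR letters alone, and BUB1 and CCNB1 hold CCAAT letters alone. Over the full 300 bases, CHR letters were found in 15 of 21 genes called lower in EZH2-/- relative to parental ESCs and in 14 of 19 genes that were not. CCAAT letters were found in 15 of the same 21 and in 15 of the same 19.

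The libraries held 16587860 to 36589089 reads on genes, so that 3 reads were worth 0.0528 to 0.120 RPM. The members had means of 11.9 to 259 RPM over the 12 libraries, far above that floor. EZH2 itself was at 59.5 to 68.6 RPM in parental, 45.7 to 55.4 in heterozygous, 8.65 to 11.5 in EZH2-/- and 256 to 385 in restored ESCs, so that it was low in the line labelled EZH2-/- and above the parental level in restored ESCs. No marker of pluripotent cells was at or under 0.1 RPM in all 3 libraries of a genotype. The 10 markers had summed levels of 3479 to 4431 RPM in parental and 4312 to 4690 RPM in EZH2-/- ESCs. The summed level of 13 markers of differentiated cells was 126 to 159 RPM in parental, 187 to 505 RPM in EZH2-/- and 73.7 to 124 RPM in restored ESCs. Of the 13, 1 was at or under 0.1 RPM in all EZH2-/- libraries. Relative to parental ESCs, limma called 5 of the pluripotency markers higher and 2 lower, and 7 of the differentiation markers higher and 2 lower. Of all tested genes, 12.6% were called higher and 18.8% lower in that comparison. Relative to restored ESCs limma called 4 differentiation markers higher, against 2.63% of all tested genes. It called no pluripotency marker there, with 1 lower at an unadjusted p under 0.05, against 1236 of 20608 genes. With the library number added as a block, 7 differentiation markers were higher than in restored ESCs, against 1276 of 20608 genes. In that fit 1 pluripotency marker, SOX2, was lower, against 3.21% of all genes. The sum of the differentiation markers was higher in EZH2-/- ESCs, where the mitosis genes were lower, and its part in their change was not tested. In bulk RNA, fewer cells in mitosis and less RNA of these genes in each cell cannot be told apart.

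Fold changes are differences of log2(RPM + 0.1), and a gene was called at an adjusted p under 0.05 in limma with p values adjusted across all 20608 genes by Benjamini-Hochberg. The study calls its 3 RNA libraries per line biological replicates, without saying in the sources used here whether they were separate cultures, and the p values measure the spread between these libraries. The median log2 fold change of all genes was 0.02 in EZH2-/- relative to restored, -0.13 in EZH2-/- relative to parental, -0.09 in heterozygous relative to parental and -0.15 in restored relative to parental ESCs. The 3 comparisons with parental ESCs share its libraries, and both comparisons of EZH2-/- ESCs share theirs.

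The third library of each genotype stood apart by transcript length and, among the 46 genes, also by GC content. The difference between its log2 value and the mean of the other two had a Spearman correlation across the 46 genes with transcript length of -0.72 in parental, -0.64 in heterozygous, -0.62 in EZH2-/- and -0.67 in restored ESCs. With transcript GC content, the correlation of the same differences was 0.60, 0.48, 0.70 and 0.41 in that order. Over 20154 genes with a length, the correlation with length was from -0.35 to -0.13. With GC content it was 0.15 in parental, -0.04 in heterozygous, 0.40 in EZH2-/- and -0.08 in restored ESCs over these genes. The genes share their libraries, so these values are descriptions. Averaged over the genotypes, members with transcripts above the median length had a median difference of -0.21 and the shorter members 0.28.

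**Figure D1:**
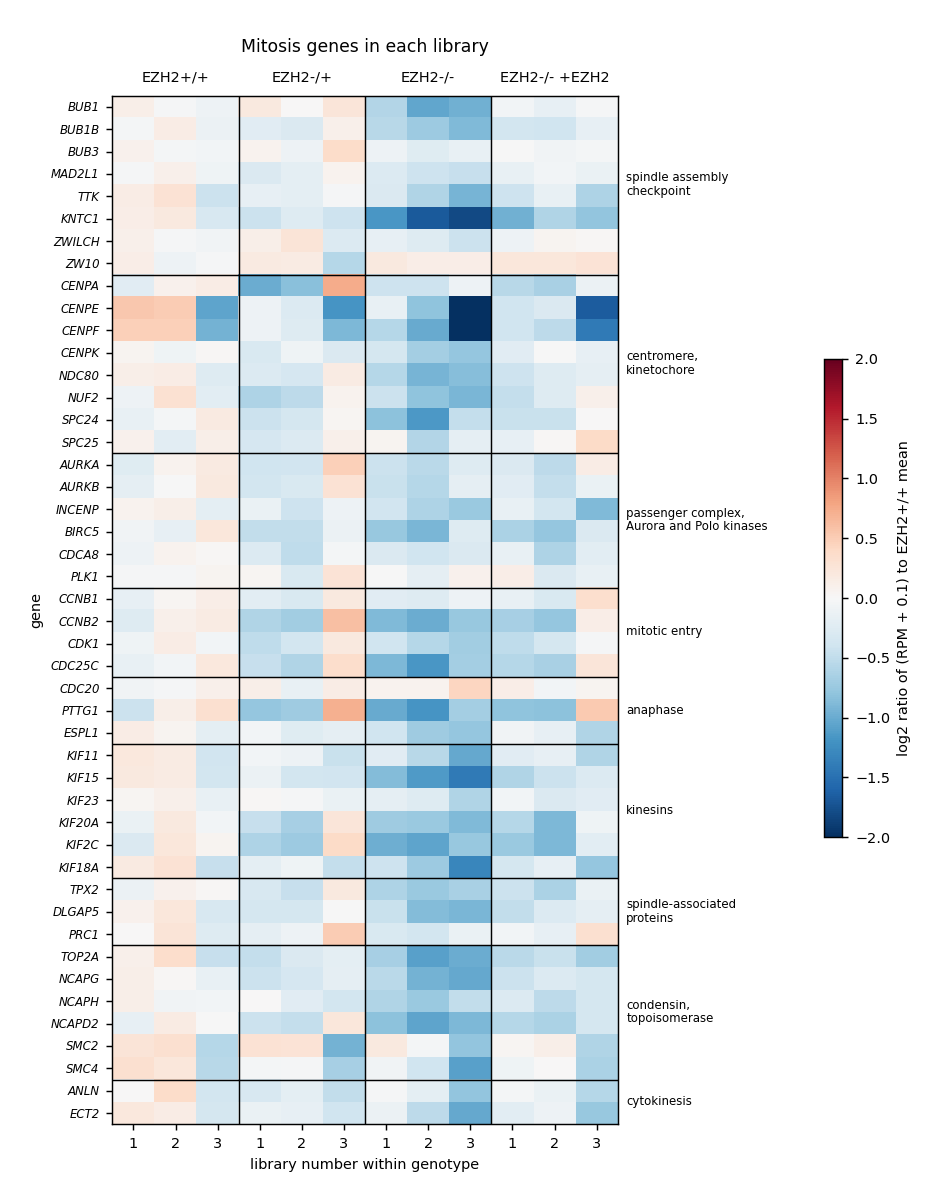
Log2 ratio of (RPM + 0.1) in each of the 12 RNA libraries (columns, by genotype and library number) to the EZH2+/+ mean, for the 46 mitosis genes (rows, grouped by role). Most rows are blue (lower) in the 3 EZH2-/- libraries, the colour scale ends at -2 and 2, and CENPE and CENPF are lower in the third library of every genotype.

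Seen library by library, the median of the 46 log2 ratios to the parental mean was -0.41, -0.69 and -0.76 in the EZH2-/- libraries. It was -0.32, -0.29 and -0.17 in the restored libraries, and -0.27, -0.30 and 0.01 in the heterozygous libraries. The EZH2-/- libraries were thus the lowest of all 12, and the third heterozygous library lay near the parental level. Of the 46 genes, 42 to 44 were below the parental mean in each EZH2-/- library.

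The study reported reduced cell numbers and a lower share of mitotic cells in ESCs lacking EZH2 than in control ESCs. From its RNA-seq it also reported regulation of M-phase as the top category among genes lower than in restored ESCs, without significant enrichment. The comparisons here ask whether the RNA of the 46 mitosis genes differed. Relative to restored ESCs, the comparison made within 1 line, 43 of the 46 genes had a negative log2 fold change in EZH2-/- ESCs, and their median was -0.28. Only 2 were called lower, against 0.524% of all tested genes, and 0 were called higher, against 2.63% of all tested genes. No member was higher at an unadjusted p under 0.05 in limma, against 2224 of 20608 genes, and limma voom also called 0 higher. Libraries of the same number deviated together in every pair of genotypes, and with the number as a block in limma 6 members were called lower, against 3.21% of all tested genes. Those 6 were BUB1, KNTC1, SPC24, CDC25C, KIF15 and NCAPG. The 3 libraries of the 2 groups did not overlap, with EZH2-/- lower, for 14 members, against 9.7% of all genes, and 26 members were lower in all 3 same-numbered pairs, against 23.9% of all genes.

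Relative to parental ESCs the members lay further down, with a median log2 fold change of -0.61, or -0.48 relative to the median of all genes. In EZH2-/- ESCs 25 of 46 were called lower, against 18.8% of all tested genes, and 0 were called higher, against 12.6% of all tested genes. With the block, 36 were called lower, against 28% of all genes. The groups did not overlap for 29 members that were lower, against 29.2% of all genes. The 25 calls became 13 without the second EZH2-/- library, 16 without the first parental library and 14 without the second. When the libraries were rescaled by median-ratio size factors, 15 members were called lower, against 13.7% of all genes, and their median was -0.48. With log2 values centred within bins of transcript GC content, 22 were called lower, against 20.9% of all genes.

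**Figure D2:**
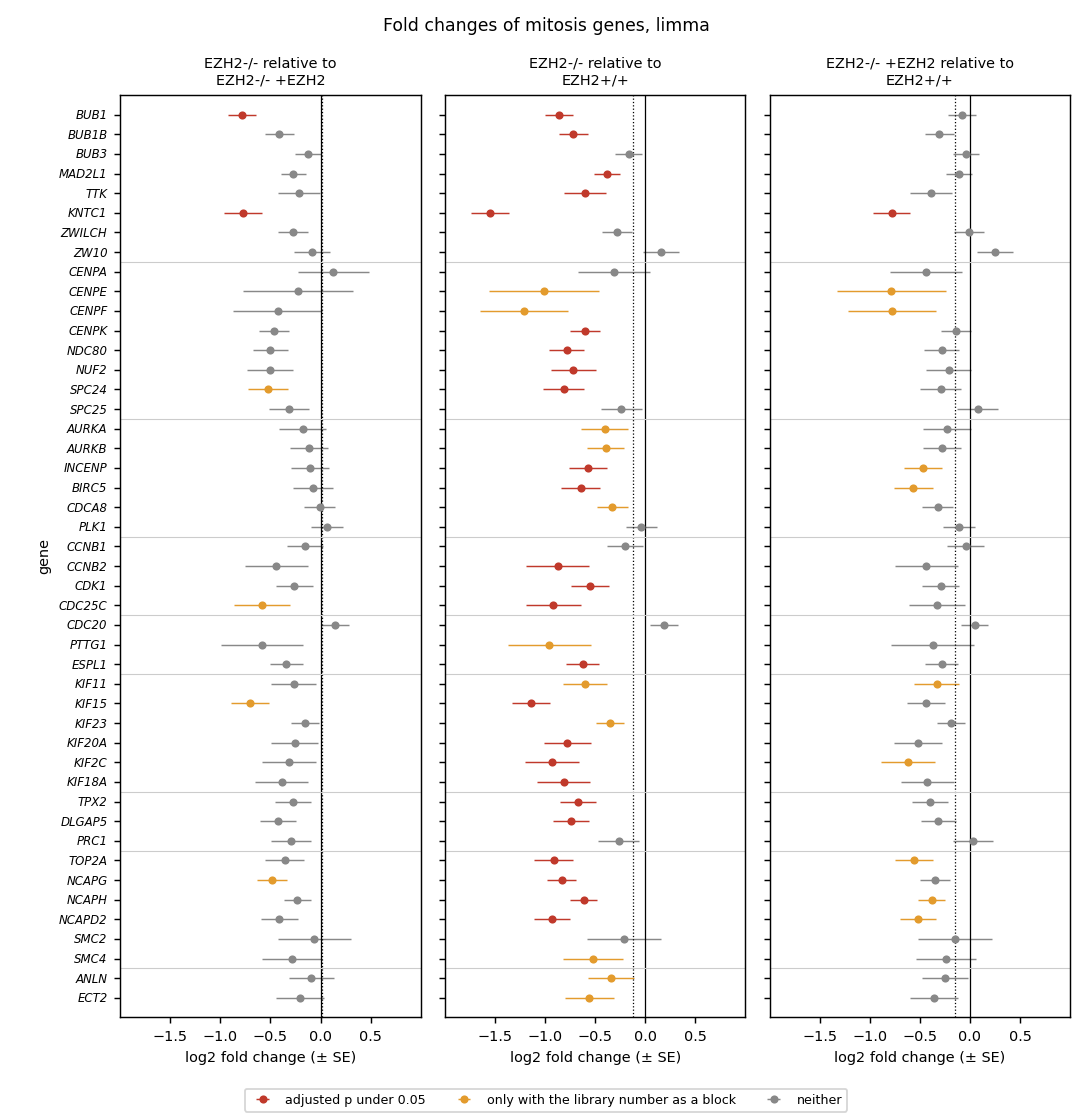
Log2 fold change of each mitosis gene (rows, grouped by role) with its standard error in 3 comparisons, each from limma with 3 libraries per genotype. Red marks an adjusted p under 0.05, orange a call added by blocking on library number, and the dotted line the median of all genes; red points number 2, 25 and 1 from left to right.

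With EZH2 restored, the members stayed below the parental level, with a median log2 fold change of -0.31, or -0.16 relative to the median of all genes. KNTC1 alone was called lower, against 6.9% of all tested genes, and 0 were called higher, against 3.4% of all tested genes. With the block 10 were called lower, against 16.1% of all genes. These were KNTC1, CENPE, CENPF, INCENP, BIRC5, KIF11, KIF2C, TOP2A, NCAPH and NCAPD2. The call of KNTC1 was lost, leaving 0, without the first or second parental or the first restored library. In heterozygous relative to parental ESCs, the median was -0.23 (-0.12 without the second heterozygous library), and limma called 0 lower, against 0.966% of all genes, and 0 higher, against 0.18% of all genes, with none in either direction at an unadjusted p under 0.05. With the block it also called 0 lower, against 2.16% of all genes, and limma voom called 0. In the block fit 8 were lower at an unadjusted p under 0.05, against 2729 of 20608 genes.

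Leaving out the third library of every genotype, an alternative chosen after the data were seen, changed the counts. In EZH2-/- relative to restored ESCs, 0 members were then called lower in limma, against 0.354% of all genes, and the median was -0.20. At an unadjusted p under 0.05, 12 were lower there, against 1668 of 20608 genes. In EZH2-/- relative to parental ESCs 34 were called lower, against 25.6% of all genes. In restored relative to parental ESCs 19 were called lower, against 15.6% of all genes, and in heterozygous relative to parental ESCs 3 were, against 4.24% of all genes. The log2 fold changes of the 46 genes themselves had Spearman correlations with transcript length of -0.06 relative to restored and -0.23 relative to parental ESCs.

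The spindle assembly checkpoint had 8 members. Of these, 5 were called lower relative to parental ESCs, against 18.8% of all tested genes, and 2 relative to restored ESCs, against 0.524%. These shares of all genes, or 28% and 3.21% with the block, also apply to the counts of the roles below. BUB1 is a checkpoint kinase at the kinetochore that also phosphorylates histone H2A. The gene (ENSG00000169679) lies at chr2:110637698-110678114 on the minus strand of GRCh38. It was at 193, 175 and 167 RPM in parental, 204, 179 and 211 RPM in heterozygous, 118, 86.6 and 91.0 RPM in EZH2-/-, and 172, 159 and 175 RPM in restored ESCs. Every EZH2-/- library lay below every library of the other 3 genotypes. BUB1 fell by 42.0% relative to restored ESCs (log2 fold change -0.79, SE 0.14, adjusted p = 0.011 in limma, n = 3) and fell by 45.1% relative to parental ESCs (adjusted p = 0.00078). Between restored and parental ESCs the log2 fold change was -0.08 (SE 0.14, adjusted p = 0.77 in limma). The call against restored ESCs was lost without the second EZH2-/- library (adjusted p = 0.0794 in limma) without the third (0.0504) and without the third library of every genotype (0.0611), and its adjusted p ranged from 0.00159 to 0.0794 over 23 alternatives.

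KNTC1 (ENSG00000184445, chr12:122527246-122626396, plus strand) encodes the ROD subunit of the RZZ complex, which brings the checkpoint proteins and dynein to the kinetochore. Its RPM were 94.1, 98.6 and 68.5 in parental, 64.0, 72.1 and 64.3 in heterozygous, 38.4, 26.7 and 24.4 in EZH2-/-, and 44.2, 56.9 and 49.6 in restored ESCs. The EZH2-/- libraries again lay below all others, and the restored libraries lay below all parental libraries. The log2 fold change was -0.77 relative to restored (SE 0.19, adjusted p = 0.047 in limma), -1.55 relative to parental (adjusted p = 0.00014) and -0.78 between restored and parental ESCs (adjusted p = 0.021). Unlike BUB1, KNTC1 was called in all 3 of these comparisons. The first of these calls was held by 9 of 23 alternatives, with adjusted p from 0.0119 to 0.219 in limma. It was lost without the second (0.219) or the third (0.158) EZH2-/- library, without any 1 restored library (0.0671 to 0.170) and without the first or second library of parental or heterozygous ESCs (0.0570 to 0.0646).

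The other RZZ subunits did not follow KNTC1. ZW10 had log2 fold changes of -0.09 relative to restored and 0.16 relative to parental ESCs, and ZWILCH had -0.28 in both, none of them called. ZWILCH overlaps RPL4, a ribosomal protein gene at 1490.5 RPM on the other strand, and the counting did not use strand. BUB1B (BubR1), MAD2L1 and TTK, the kinase MPS1, were called lower relative to parental ESCs only, with log2 fold changes of -0.72, -0.38 and -0.60. BUB3, which binds BUB1 and BubR1, had log2 fold changes of -0.13 and -0.17 and was not called.

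Of 8 centromere and kinetochore genes, 4 were called lower relative to parental ESCs, against 18.8% of all genes, and none relative to restored ESCs. In the latter comparison 4 were lower at an unadjusted p under 0.05 in limma, against 1236 of 20608 genes, and limma voom called none. The 4 called were CENPK, of the inner kinetochore, and NDC80, NUF2 and SPC24, of the NDC80 complex that holds microtubules, with log2 fold changes from -0.81 to -0.60. SPC25, which pairs with SPC24 in that complex, had -0.24 and was not called. SPC24 was at 25.4, 27.5 and 31.7 RPM in parental, 20.7, 21.9 and 28.9 RPM in heterozygous, 15.9, 12.7 and 20.1 RPM in EZH2-/-, and 20.6, 20.7 and 28.2 RPM in restored ESCs. In every genotype the third library was the highest, and the EZH2-/- and restored libraries did not overlap. The log2 fold change between them was -0.52 (SE 0.20, adjusted p = 0.20 in limma, and 0.020 with the number as a block).

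CENPE, a kinetochore motor, and CENPF, a large kinetochore protein, had log2 fold changes of -1.01 and -1.21 relative to parental ESCs without being called (adjusted p = 0.18 and 0.053 in limma). With the number as a block both were called (adjusted p = 0.00069 and 9.2e-05 in limma). CENPF was at 241, 241 and 90.0 RPM in parental and 117, 86.8 and 41.6 RPM in EZH2-/- ESCs, so that the third parental library lay among the EZH2-/- libraries. CENPA, the centromeric histone H3, had -0.31 relative to parental ESCs and was not called.

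The chromosomal passenger complex, with the Aurora and Polo kinases, had the median log2 fold change nearest 0 of the 9 roles relative to restored ESCs, -0.09 over 6 genes, with no call in limma, by an unadjusted p under 0.05 or in limma voom. Relative to parental ESCs, INCENP, the scaffold of the complex, and BIRC5 (survivin), which tethers it to centromeres, were called lower with -0.57 and -0.64. BIRC5 was also low in restored ESCs (-0.57 relative to parental, adjusted p = 0.087 in limma, and 0.0016 with the block). PLK1, the kinase of spindle assembly and mitotic progression, was at 109 to 115 RPM in parental and 97.95 to 117 RPM in EZH2-/- ESCs, with overlapping ranges. AURKA, which matures the spindle poles, was at 66, 82.2 and 89.1 RPM in parental, 59.7, 60.0 and 109 RPM in heterozygous, 58.4, 54.1 and 65.7 RPM in EZH2-/-, and 63.9, 54.4 and 86.6 RPM in restored ESCs. Its EZH2-/- libraries overlapped those of restored ESCs (log2 fold change -0.18, SE 0.24, adjusted p = 0.75 in limma), a difference that turned to 0.01 without the third restored library. AURKA, AURKB and CDCA8 had -0.41, -0.40 and -0.33 relative to parental ESCs and were called once the block was added. AURKA was also called without the third library of every genotype (adjusted p = 0.0446 in limma).

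Of the 4 genes of mitotic entry, CCNB2, CDK1 and CDC25C were called lower relative to parental ESCs, against 18.8% of all genes. Their log2 fold changes were -0.88, -0.55 and -0.92, and CCNB1 was not called. CDC25C, the phosphatase that activates cyclin B with CDK1, was at 21.4, 22.8 and 27.6 RPM in parental, 17.2, 15.6 and 30.2 RPM in heterozygous, 12.7, 10.5 and 14.8 RPM in EZH2-/-, and 16.0, 15.1 and 28.1 RPM in restored ESCs. All EZH2-/- libraries were below all others, and the third library was high in each genotype. The log2 fold change relative to restored ESCs was -0.59 (SE 0.28, adjusted p = 0.31 in limma, and 0.033 with the block), and -0.30 without the third restored library. Its call relative to parental ESCs was lost without a filter (adjusted p = 0.0821 in limma), with median-ratio (0.0581) or upper quartile scaling (0.0591), and without the second (0.0588) or the third (0.0824) parental or the first (0.0551) or second (0.0967) EZH2-/- library. CDC25C overlaps FAM53C on the other strand, at 62.0 RPM. CCNB1 encodes the main mitotic cyclin, and its levels were 170, 196 and 210 RPM in parental, 164, 155 and 219 RPM in heterozygous, 163, 159 and 177 RPM in EZH2-/-, and 172, 154 and 240 RPM in restored ESCs. These ranges overlapped between all genotypes (log2 fold change -0.16 relative to restored, SE 0.18, adjusted p = 0.71 in limma, and 0.03 as a log2 fold change without the third restored library).

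Among the anaphase genes, ESPL1, the separase that cuts cohesin, was called lower relative to parental ESCs (-0.62, adjusted p = 0.013 in limma). PTTG1, the securin that restrains separase, was at 67.4, 98.7 and 114 RPM in parental, 53.5, 55.8 and 149 RPM in heterozygous, 45.2, 40.2 and 56.9 RPM in EZH2-/-, and 51.9, 51.6 and 131 RPM in restored ESCs. The third library stood apart in heterozygous and restored ESCs, and the EZH2-/- and parental libraries did not overlap. Its log2 fold change relative to restored ESCs was -0.58 (SE 0.41, adjusted p = 0.52 in limma), or -0.14 without the third restored library, and relative to parental ESCs it was -0.96 (adjusted p = 0.095 in limma, and 0.0050 with the block). CDC20, the activator of the anaphase-promoting ligase, had positive log2 fold changes of 0.14 and 0.19 relative to restored and parental ESCs, with adjusted p = 0.65 and 0.32 in limma.

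All 6 kinesins had negative log2 fold changes in both comparisons of EZH2-/- ESCs. Of the 6, 4 were called lower relative to parental ESCs, against 18.8% of all genes. KIF15, a motor that supports the bipolar spindle, was at 37.6, 36.6 and 25.3 RPM in parental, 30.1, 25.2 and 25.1 RPM in heterozygous, 17.9, 14.8 and 12.2 RPM in EZH2-/-, and 21.6, 24.1 and 26.98 RPM in restored ESCs. Its EZH2-/- libraries lay below all other libraries. The log2 fold change was -0.70 relative to restored ESCs (SE 0.19, adjusted p = 0.066 in limma, and 0.024 with the block) and -1.14 relative to parental ESCs (adjusted p = 0.00091). KIF15 overlaps TMEM42, at 9.80 RPM, on the same strand. KIF20A and KIF2C, which act in cytokinesis and in microtubule depolymerisation at centromeres, and KIF18A, which dampens chromosome movements, were called lower with -0.78, -0.94 and -0.81. KIF20A overlaps BRD8 and CDC23 on the other strand, the higher of which is at 63.3 RPM. KIF11 (Eg5), which pushes the spindle poles apart, and KIF23, of the central spindle, had -0.60 and -0.35 and were called once the block was added. KIF15 was also called relative to restored ESCs in limma with GC bins (adjusted p = 0.0484), without the third parental library (0.0483) and without the first EZH2-/- library (0.0418).

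Of the spindle-associated proteins, TPX2, which activates AURKA, and DLGAP5 were called lower relative to parental ESCs, and PRC1, which bundles the central spindle, was not. DLGAP5 was at 104, 115 and 78.9 RPM in parental, 77.3, 77.1 and 97.1 RPM in heterozygous, 71.9, 53.8 and 52.3 RPM in EZH2-/-, and 70.1, 81.0 and 86.5 RPM in restored ESCs. The EZH2-/- range overlapped that of restored ESCs but not that of parental ESCs. The log2 fold changes were -0.43 (SE 0.18, adjusted p = 0.24 in limma) and -0.74 (adjusted p = 0.0078).

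Condensin I is represented by NCAPG, NCAPH and NCAPD2 with the SMC2 and SMC4 ATPases shared with condensin II, and TOP2A removes links between sister chromatids. The 3 subunits specific to condensin I and TOP2A were called lower relative to parental ESCs, with log2 fold changes of -0.83, -0.62, -0.93 and -0.91, while SMC2 and SMC4 had -0.21 and -0.52 and were not, SMC4 being called once the block was added. TOP2A was at 365, 435 and 249 RPM in parental, 244, 277 and 297 RPM in heterozygous, 215, 161 and 170 RPM in EZH2-/-, and 234, 250 and 211 RPM in restored ESCs. The EZH2-/- libraries lay below all parental libraries, and the restored libraries overlapped both groups. Relative to restored ESCs the log2 fold change of TOP2A was -0.36 (adjusted p = 0.38 in limma), and in restored relative to parental ESCs it was -0.56 (SE 0.19, adjusted p = 0.087 in limma, and 0.038 with the block).

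NCAPD2 was at 186, 233 and 208 RPM in parental, 154, 149 and 242 RPM in heterozygous, 118, 99.6 and 111 RPM in EZH2-/-, and 140, 135 and 163 RPM in restored ESCs. The 3 genotypes other than heterozygous did not overlap and stood in the order EZH2-/-, restored, parental. Between neighbours in that order the log2 fold changes were -0.41 and -0.52, neither called (adjusted p = 0.27 and 0.090 in limma). The second was called with the block (adjusted p = 0.029 in limma), with GC bins (0.0462), without the third heterozygous library (0.0185) and without the third library of every genotype (0.0134). NCAPD2 overlaps MRPL51, at 98.8 RPM, on the other strand. NCAPG was at 77.2, 71.9 and 64.1 RPM in parental, 52.4, 56.1 and 62.6 RPM in heterozygous, 48.8, 36.9 and 34.8 RPM in EZH2-/-, and 52.6, 58.6 and 55.6 RPM in restored ESCs. The EZH2-/- libraries lay below all others, with a log2 fold change of -0.48 relative to restored ESCs (SE 0.15, adjusted p = 0.10 in limma, and 0.046 with the block). It was also called without the first EZH2-/- library (adjusted p = 0.0306 in limma). NCAPG overlaps LCORL, at 15.5 RPM, on the other strand.

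Neither cytokinesis gene, ANLN (anillin) or ECT2, the exchange factor that activates RhoA at the cleavage furrow, was called in any comparison when all 12 libraries were fitted without the block. ECT2 was at 69.2, 66.3 and 46.8 RPM in parental, 54.5, 53.7 and 45.2 RPM in heterozygous, 55.1, 41.5 and 29.4 RPM in EZH2-/-, and 51.7, 56.1 and 35.3 RPM in restored ESCs. The third library was the lowest in every genotype, and all ranges overlapped. Its log2 fold change relative to restored ESCs was -0.20 (SE 0.24, adjusted p = 0.72 in limma), and was 0.03 without the third EZH2-/- library. Relative to parental ESCs it was -0.56 (adjusted p = 0.096 in limma), and -0.32 without the third EZH2-/- library. It was called there with the block (adjusted p = 0.0039 in limma), without the first EZH2-/- library (0.0346) and without the third library of every genotype (0.0196).

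**Figure D3:**
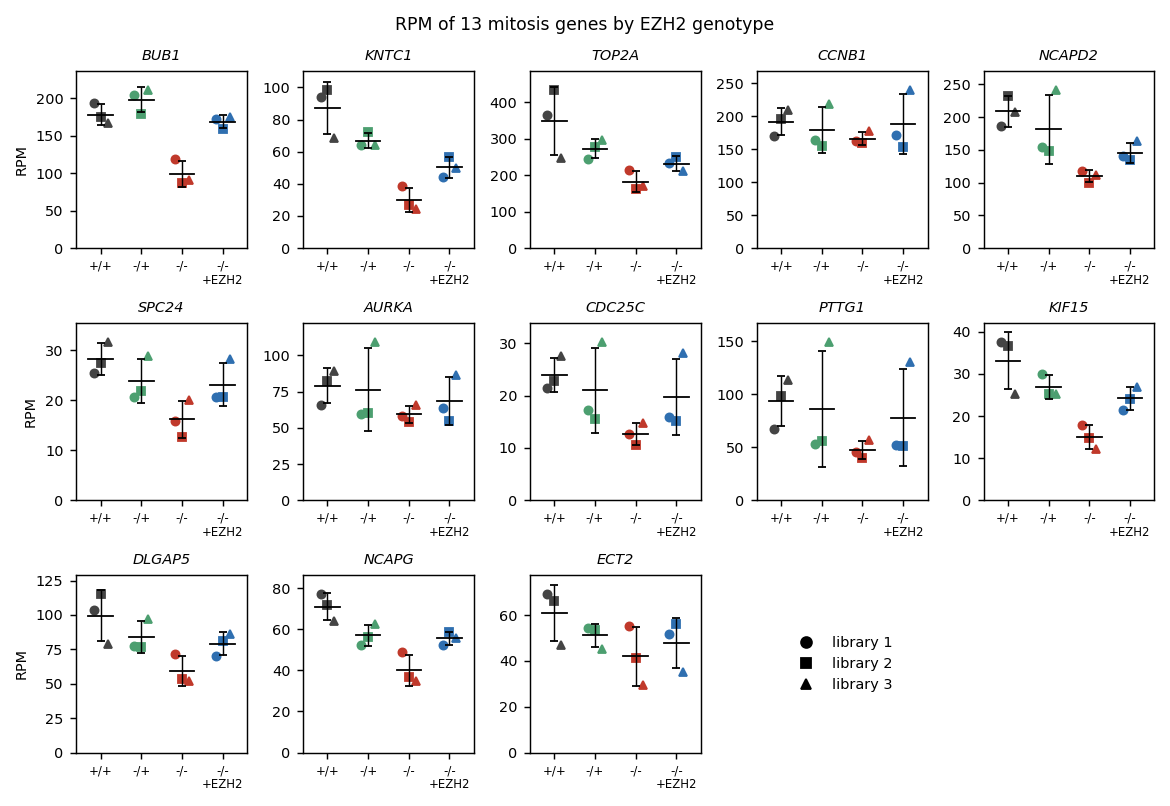
RPM of 13 mitosis genes (vertical axis, from 0) in each library (points, shaped by library number) of the 4 EZH2 genotypes, with the mean and SD of 3 libraries. BUB1 and KNTC1 are lower in all EZH2-/- libraries than in any other, CCNB1 overlaps between all genotypes, and the third library is high for PTTG1 in EZH2-/+ and EZH2-/- +EZH2 ESCs.

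Other genes of mitosis, a list of 69 genes in the table, had medians of -0.15 relative to restored and -0.38 relative to parental ESCs. In limma 1 and 24 of them were called lower in these comparisons and 0 higher. At an unadjusted p under 0.05, 0 and 2 were higher, against 2224 and 3486 of 20608 genes. Of all tested genes, 0.524% and 18.8% were called lower in the same comparisons, and 2.63% and 12.6% higher. With the block 5 and 41 were called lower, against 3.21% and 28% of all genes, and 0 and 1 higher. The 1 called relative to restored ESCs was NCAPG2, a subunit of condensin II, at 46.1 ± 4.72 RPM (SD, n = 3) in EZH2-/- and 72.0 ± 5.68 RPM in restored ESCs (adjusted p = 0.026 in limma). Of 48 DNA replication genes, 2 were called lower relative to restored ESCs and 11 relative to parental ESCs, with medians of -0.15 and -0.23, against the same 0.524% and 18.8% of all genes. With the block 7 and 17 were called lower, against 3.21% and 28% of all genes. The 2 called without it relative to restored ESCs were TYMS (thymidylate synthase), at 70.9 ± 5.29 and 117 ± 21.4 RPM, and CDC7, a kinase that fires replication origins, at 30.7 ± 3.96 and 45.0 ± 3.62 RPM in EZH2-/- and restored ESCs.

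Of 19 regulators that act on mitotic promoters, limma called none relative to restored ESCs and 4 lower relative to parental ESCs, against 18.8% of all genes. Relative to restored ESCs 3 were lower at an unadjusted p under 0.05, against 1236 of 20608 genes. With the block, 1, RBL1, was called lower relative to restored ESCs and 7 relative to parental ESCs, against 3.21% and 28% of all genes. FOXM1, an activator of late cell cycle genes, was at 131 ± 5.40 RPM in EZH2-/- and 131 ± 26.7 RPM in restored ESCs, and MYBL2, which acts with MuvB, was at 174 ± 14.8 and 147 ± 24.4 RPM. Neither was called. The 4 called without the block relative to parental ESCs were E2F2 (-1.59), RBL2 (-1.18), which encodes the p130 subunit of DREAM, LIN52 (-0.86), a MuvB subunit, and E2F5 (-0.44).

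Among 7 CDK inhibitors, which hold back cell cycle kinases, 3 were called higher in EZH2-/- relative to restored ESCs, against 2.63% of all genes. The study had itself reported derepression of CDKN2A and CDKN2B in EZH2-/- ESCs. CDKN2A was at 10.0, 14.1 and 15.0 RPM in EZH2-/- and 1.72 to 2.70 RPM in restored ESCs (log2 fold change 2.60, adjusted p = 0.0018 in limma). CDKN2B was at 1.27, 9.37 and 3.41 RPM in EZH2-/- and 0.120 to 0.154 RPM in restored ESCs (adjusted p = 0.0034). CDKN2C was at 0.327 to 0.493 RPM in EZH2-/- ESCs and had no read in restored ESCs. Relative to parental ESCs CDKN1A was also called higher, at 15.9 ± 3.08 against 5.20 ± 2.21 RPM, and CDKN1B was called lower, at 14.1 ± 0.0903 against 21.6 ± 0.903 RPM.

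Promoters were read in windows of 5 kb around start sites, and for each gene the window with the most H3K4me3 was used. ChIP-seq has 1 column per genotype and mark, so its differences carry no test. The members had active promoters in parental ESCs, with a median H3K4me3 of 11.5 RPM against 4.92 RPM over all 35683 gene names, and a median H3K27ac of 2.63 RPM against 2.07 RPM. Their H3K27me3 was low, with a median of 1.11 RPM against 1.84 RPM over all gene names, beside a median input of 1.43 RPM. With the thresholds of the study applied to every window of the deposited table (input under 0.1 and H3K27me3 over 0.1 log2 RPKM), which need not give the set of promoters that the study used, 1 member, BUB3, had an H3K27me3 promoter, 2.17% of the members, against 17.5% of all gene names. EZH2 in parental ESCs had a median of 0.445 RPM over the members and 0.322 RPM over all gene names, and its highest member was KNTC1 at 1.11 RPM.

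In EZH2-/- relative to parental ESCs, the median log2 change of H3K27me3 was -0.30 over the members and -0.85 over all gene names, a difference of 0.54. The members' median in parental ESCs was already under that of their input, at 1.11 against 1.43 RPM. A decrease of at least 1 was seen in 8 members, against 45.2% of all gene names, and an increase of at least 1 in 2, against 3.85%. BUB3 had the largest decrease, from 5.85 RPM in parental to 0.766 RPM in EZH2-/- ESCs, with 4.73 RPM in restored ESCs, while its RNA was not called in any comparison. The 2 increases were at KIF15, from 1.98 to 5.00 RPM, and at NCAPG, from 0.466 to 1.34 RPM, where restored ESCs had 3.34 and 0.991 RPM. Both NCAPG values lay under its input of 1.59 and 1.46 RPM in the same genotypes, and both KIF15 values above its input of 1.33 and 1.22 RPM. With 1 column per genotype neither increase was tested. The study reported complete loss of H3K27me3 at gene promoters in EZH2-/- ESCs. At BUB1, H3K27me3 was 2.00, 0.792 and 0.982 RPM in parental, EZH2-/- and restored ESCs, beside an input of 1.48, 1.44 and 1.73 RPM. At KNTC1 it was 1.40, 1.13 and 1.29 RPM, beside an input of 1.35, 1.43 and 1.10 RPM. For comparison, H3K27me3 at the CDK inhibitor gene CDKN2A was 21.9 RPM in parental, 0.332 RPM in EZH2-/- and 10.1 RPM in restored ESCs.

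In EZH2-/- relative to parental ESCs the median log2 change of H3K4me3 was 0.22, against -0.10 over all gene names. In 0 members it decreased by at least 1, against 11.1% of all gene names, and in 2, CENPE and ANLN, it increased by at least 1, against 2.63%. The median log2 change of H3K27ac was 0.37, against 0.34 over all gene names, with 0 members lower by 1, against 2.93%, and 0 higher by 1, against 9.5%. For H3K4me1 the median was -0.02, against 0.12, with 0 members lower by 1, against 3.66%, and 0 higher by 1, against 2.37%. When the mean over all windows of a gene was used, the medians were -0.07 for H3K4me3, -0.01 for H3K27ac and -0.22 for H3K4me1. At BUB1 H3K4me3 was 12.4, 13.8 and 14.8 RPM, and H3K27ac 1.67, 3.04 and 2.82 RPM, in parental, EZH2-/- and restored ESCs.

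**Figure D4:**
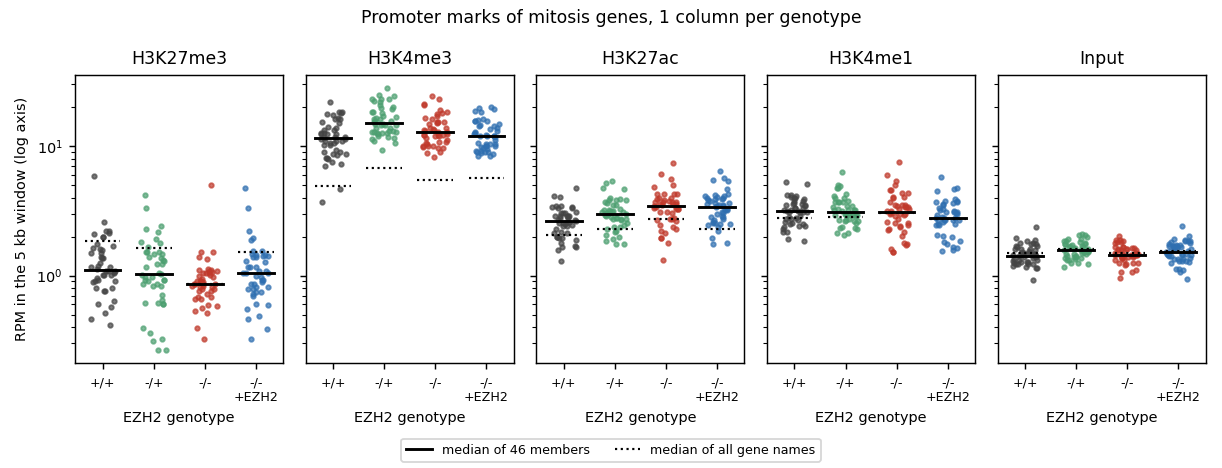
RPM in the promoter window (log axis) of the 46 mitosis genes (points) for 4 histone marks and input in the 4 EZH2 genotypes, with the median of the members (solid) and of all gene names (dotted). The members sit above all gene names for H3K4me3 in every genotype, and below them for H3K27me3 in every genotype but EZH2-/-, where the medians are 0.868 and 0.865 RPM.

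Levels compared per kilobase of transcript ran from 3.00 RPM per kb for CENPE to 107 RPM per kb for PTTG1, with a median of 13.7 RPM per kb. Across the 46 genes, this level had a Spearman correlation of 0.13 with the log2 fold change relative to parental ESCs, a description over genes that share their libraries.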

How the data were processed

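RNA-seq (3 libraries for each of 4 genotypes) and ChIP-seq (1 column for each histone mark, input and genotype, and EZH2 in EZH2+/+ ESCs) were analysed from the deposited tables. For RNA-seq, the authors trimmed reads, aligned them to GRCh38 with TopHat2 2.0.12, counted reads per gene without strand in SeqMonk and deposited log2 RPM. For ChIP-seq, the authors aligned with Bowtie2 2.2.5, counted non-duplicated reads within 2.5 kb of start sites and deposited log2 RPM. The labels name 2 replicates behind each histone or input column and the methods 3. In the RNA table a gene without a read is deposited as 0.9 of 1 read and was returned to 0.

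In R 4.3.3, limma 3.58.1 (lmFit, eBayes with trend) tested, in both directions, every gene whose mean reached 0.1 RPM. All 12 libraries entered 1 fit of log2(RPM + 0.1), and p values were adjusted by Benjamini-Hochberg. The authors tested raw counts with a count model, and limma was used here because the deposited values are log2 RPM. Whole reads were recovered from the log2 RPM only for depth and for limma voom, an alternative. The fits were tested on simulated data. Library numbers recur in every genotype, and deviations from the genotype means correlated in all 18 same-numbered pairs (0.107 to 0.560, mean 0.33). The other 36 pairs ran from -0.489 to 0.245 (mean -0.16), so the ranges overlapped. Deviations sum to 0 within a genotype, so the negative mean of the other pairs largely follows from the positive mean of the same-numbered pairs. Fits with the number as a block are therefore given beside the results they change.

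Transcript lengths and GC content came from GENCODE release 44. Levels in every library are given for members called in EZH2-/- relative to EZH2-/- +EZH2 ESCs, the 3 with the highest mean RPM and, in roles without a call, the one with the largest absolute fold change there. Of the non-members, EZH2, the regulators, the CDK inhibitors, and replication and other mitosis genes called in that comparison may be named. CENPF, PLK1 and the promoter examples other than BUB1 were chosen after their values were seen, as were the overlapping genes, of which 1 is not reported here. Members and lists were chosen with earlier results of these data known. Alternatives were the block, pseudocount, filter, scaling, GC content, recovered reads and libraries left out. The depth of the ChIP-seq columns was not used.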

Additional observations from a re-analysis of the deposited data

How the results depend on the processing

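No alternative called any of the 46 genes higher in any comparison. Members called lower in EZH2-/- relative to EZH2-/- +EZH2 ESCs numbered 2, against 0.524% of all genes. With the library number as a replicate block they numbered 6, against 3.21%. With the block and bins of GC content they numbered 7, against 1011 of 20154 genes. They numbered 1 without a filter, against 59 of 35805 genes, and 1 with a mean of at least 1 RPM, against 67 of 15499. Limma with only the libraries of both groups called 1, against 52 of 20608 genes, and limma voom on recovered reads 1, against 36 of 20608. Members called numbered 0 without the third library of every genotype, against 0.354%, an alternative chosen after seeing the data. Leaving out each library in turn gave 0 to 4. Relative to EZH2+/+ ESCs the count of 25, against 18.8% of all genes, became 15 without a filter, against 3210 of 35805 genes. It became 15 with median-ratio scaling, against 13.7%, and 13 to 28 with single libraries left out. For all genes, median-ratio scaling turned 2593 higher and 3870 lower calls there into 3378 and 2822, and 701 and 1422 in EZH2-/- +EZH2 relative to EZH2+/+ ESCs into 1030 and 877.

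In EZH2-/- +EZH2 relative to EZH2+/+ ESCs the single call, against 6.9% of all genes, became 10 with the replicate block, against 16.1%. It became 4 with GC bins, against 1597 of 20154 genes, and 14 with both, against 3499 of 20154. Without a filter 0 were called, against 1024 of 35805 genes, and with median-ratio scaling 0, against 877 of 20608. Without the third libraries 19 were called, against 15.6%, and 0 to 3 with single libraries left out. The median of -0.31 became -0.16 with median-ratio scaling, -0.20 with upper quartile scaling and -0.41 without the third libraries. In EZH2-/+ relative to EZH2+/+ ESCs the count of 0 became 3, against 4.24% of all genes, and the median -0.37 without the third libraries. With single libraries left out the count was 0 or 1, with medians of -0.26 to -0.12. For the 13 genes followed in every library, the block changed no call other than those given beside them. The causes were not tested.

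Of 1196 values of the 13 genes followed in every library under these alternatives, 1112 kept their direction and side of the threshold, 29 fell short of it, 41 newly passed it and 14 changed sign, all from values that were not called. In EZH2-/- relative to EZH2-/- +EZH2 ESCs, CCNB1 was 0.03003 and AURKA 0.005683 without the third EZH2-/- +EZH2 library, and ECT2 0.03156 without the third EZH2-/- library. With single libraries left out the ranges were -0.291 to 0.03003 for CCNB1, -0.329 to 0.005683 for AURKA and -0.4197 to 0.03156 for ECT2. In EZH2-/+ relative to EZH2+/+ ESCs, AURKA was 8.75e-05 with median-ratio scaling and 0.04487 and 0.04176 without the first and second EZH2-/+ library, and PTTG1 was 0.0023 without the first. The ranges with single libraries left out were -0.3899 to 0.04487 for AURKA and -0.7384 to 0.0023 for PTTG1. In EZH2-/- +EZH2 relative to EZH2+/+ ESCs, BUB1 was 0.06957 and CCNB1 0.10 with median-ratio scaling, 0.03336 and 0.06803 with upper quartile scaling, and CCNB1 was 0.02 without the third EZH2+/+ library and 0.01 and 0.08948 without the first and second EZH2-/- +EZH2 library, a range of -0.2315 to 0.08948.

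At promoters in EZH2-/- relative to EZH2+/+ ESCs, centring on all gene names turned the median log2 change of H3K27me3 to 0.54 and of H3K27ac to 0.02517. The mean over all windows gave -0.06725 for H3K4me3, -0.005672 for H3K27ac and -0.22 for H3K4me1. With 3 reads worth up to 0.120 RPM, counting depth limits CDKN2B and CDKN2C but no member.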
